A study of Mus musculus with 12 samples.

Results

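Calca, Ptn, Stc2, Cited1, Prom1, Tnfsf11 and Greb1 are effector and paracrine genes of hormone-sensing luminal cells, the cells of the mammary epithelium that carry the receptors for oestrogen, progesterone and prolactin. They were chosen with earlier results of these data known. Their probes were found by name, through the transcript accession that the array design gives each probe. All 7 genes were represented, by 10 of the 41174 probes and as 7 of the 17174 gene symbols on the array. Calca, Prom1 and Tnfsf11 had 2 probes each, and the others had 1.

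Messenger RNA was measured on 12 single-colour arrays, 3 in each of 4 groups, in a study of organ regeneration by lineage reprogramming in vivo that depends on the stroma. Adult lung cells (replicates 1, 2 and 3) and adult mammary cells (replicates 1, 2 and 4) came from female mice aged 10 weeks. Their organs were digested with trypsin and collagenase, and epithelium was enriched by repeated low-speed spins, with no sort stated. The other groups are reprogrammed lung (replicates 1, 3 and 4) and reprogrammed mammary (replicates 1, 2 and 3), from the same donor protocol, in which cells were put in Matrigel for transplantation. No genotype, strain, host or hormone treatment is named in the labels used here for any group. Nor do they state whether "lung" and "mammary" in a reprogrammed name refer to the cells transplanted or to the tissue recovered. The arrays of a group are not said to come from separate mice, so the p-values measure the spread between these arrays, which may be technical.

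In the mammary gland, circulating oestrogen and progesterone act on a minority of luminal cells, and these cells signal to their neighbours through secreted and surface ligands. Tnfsf11, also called RANKL, is such a ligand: progesterone induces it, and its receptor Tnfrsf11a (RANK) on nearby cells drives growth and alveolar development. Calca encodes calcitonin and, by alternative splicing, the neuropeptide CGRP. Ptn is pleiotrophin, a heparin-binding growth factor, and Stc2 is stanniocalcin 2, a secreted glycoprotein. Cited1 is a transcriptional coregulator that can bind the oestrogen receptor, Prom1 (CD133) is a membrane glycoprotein used to sort hormone-sensing luminal cells in the mouse, and Greb1 is an oestrogen-induced cofactor of the oestrogen receptor.

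The promoters of Calca, Ptn, Stc2 and Cited1 are shown because these 4 genes had the largest differences between the adult organs. Each run is the 250 bases before the gene's first listed start in RefSeq (build GRCm38.p6, minus strand, written 5′ to 3′ as the gene reads). Capitals mark the core of the oestrogen response element, GGTCA, or its reverse TGACC, and the GATA motif AGATAA, or its reverse TTATCT.
Calca, chr7:114636358-114636607: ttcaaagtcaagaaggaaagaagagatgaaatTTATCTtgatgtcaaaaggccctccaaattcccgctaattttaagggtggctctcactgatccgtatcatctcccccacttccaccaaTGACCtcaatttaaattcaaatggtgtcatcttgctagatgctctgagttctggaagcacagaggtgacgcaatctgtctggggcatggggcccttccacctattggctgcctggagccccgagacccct
Ptn, chr6:36810180-36810429: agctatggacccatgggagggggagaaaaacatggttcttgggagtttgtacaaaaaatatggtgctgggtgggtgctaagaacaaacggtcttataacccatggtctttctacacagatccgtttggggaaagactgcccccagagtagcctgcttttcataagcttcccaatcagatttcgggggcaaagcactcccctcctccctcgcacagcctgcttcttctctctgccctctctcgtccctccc
Stc2, chr11:31370062-31370311: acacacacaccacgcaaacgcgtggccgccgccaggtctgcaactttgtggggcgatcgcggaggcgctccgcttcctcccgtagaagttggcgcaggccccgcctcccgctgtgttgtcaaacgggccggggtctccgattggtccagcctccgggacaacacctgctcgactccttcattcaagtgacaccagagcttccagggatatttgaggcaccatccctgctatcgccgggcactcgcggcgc
Cited1, chrX:102252182-102252431: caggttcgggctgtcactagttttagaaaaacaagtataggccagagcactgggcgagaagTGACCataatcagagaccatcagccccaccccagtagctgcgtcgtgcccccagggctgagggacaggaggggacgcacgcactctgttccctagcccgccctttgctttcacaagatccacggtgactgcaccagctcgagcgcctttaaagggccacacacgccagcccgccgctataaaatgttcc
Both strands were searched. The core GGTCA lay at bases 130 to 126 before the start of Calca, on the reverse strand, where its last base is shared with a CCAAT box at bases 134 to 130. In Cited1 it lay at bases 189 to 185, also on the reverse strand. It was absent from the windows of Ptn and Stc2. Of all 32536 promoter windows of this length in the table, 35.3% hold GGTCA, so its presence in a window is common. The AGATAA of Calca, at bases 218 to 213 on the reverse strand, is found in 9.97% of windows. The full oestrogen element, GGTCA and TGACC with 3 bases between them, was found in 0.0645% of all windows and was in none of the 11 windows of the 7 genes. The same held for the forkhead motif TGTTTAC (3.17% of windows). Stc2 has the most CpG-rich of these 4 promoters, with 24 CpG and 64.4% G+C, against 4 CpG and 48.0% in Calca. The medians of the table are 6 CpG and 52.4% G+C.

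Levels below are log2 of the signal relative to the 75th percentile of the array, so 0 is the 75th percentile. Within an array, a level of one probe cannot be set against that of another, so each gene is compared with itself across arrays. The signal at the 75th percentile was 296 to 609 scanner units, against 18 to 23 for negative controls, and no spot was saturated. Probes that the scanning program marked as well above background made up 71.7% to 77.5% of 10 arrays, 89.1% of adult mammary replicate 4 and 91.1% of reprogrammed lung replicate 1. These 2 arrays also had the narrowest signal range. Reprogrammed lung replicate 1 stood apart in its markers too. Its 10 pan-epithelial markers summed to 33.6 times the 75th percentile, close to the adult lung arrays (26.0 to 33.2) and below the other 8 arrays (165 to 276). Its 8 B cell markers summed to 121 times, against at most 20.3 times on the other 11 arrays. Alveolar type II markers, such as the surfactant genes, summed to 139.6 to 284 times in adult lung and to 3.58 to 8.84 times in the other 3 groups, and were low in reprogrammed lung as well as in both mammary groups. The surfactant gene Sftpc had a value on 2 adult lung arrays, so the adult lung sums do not all hold the same genes.

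**Figure D1:**
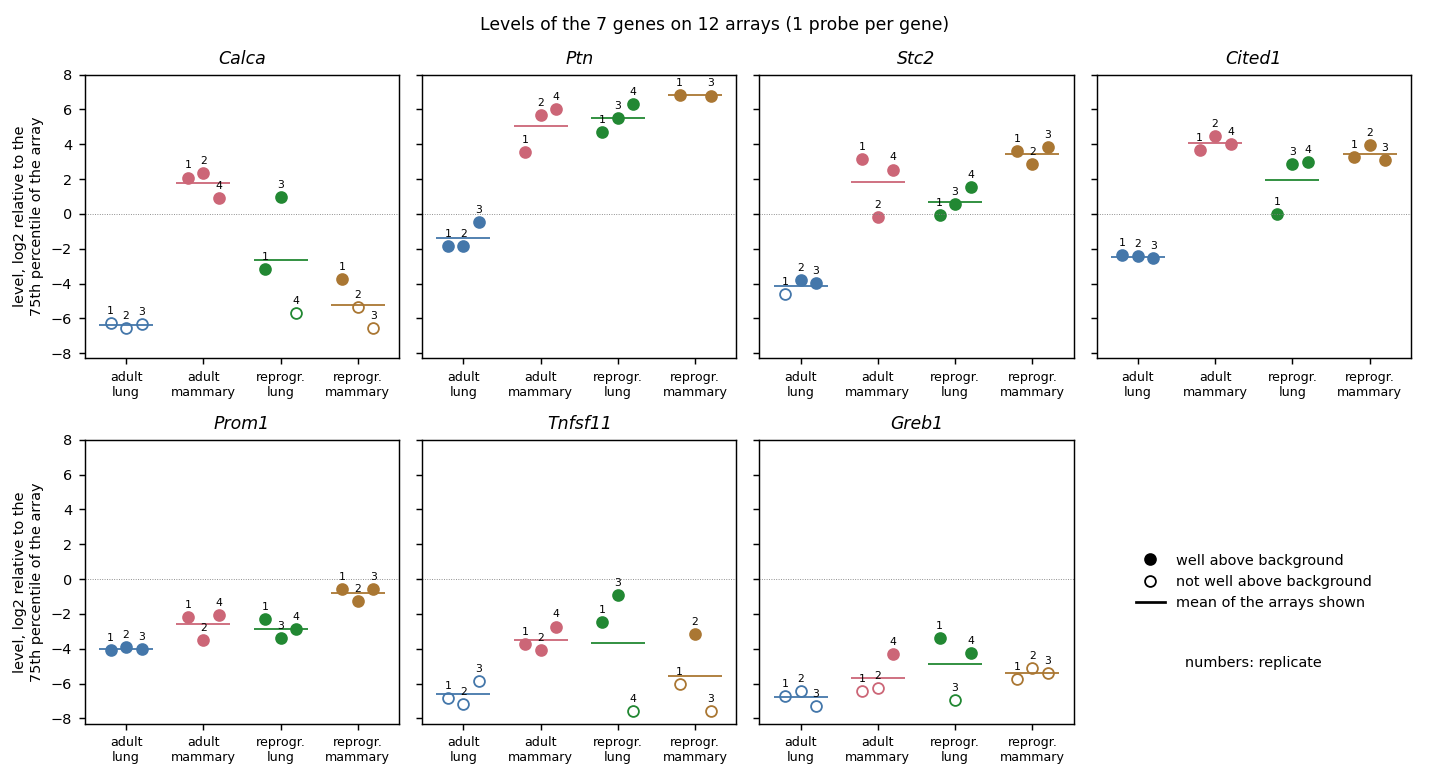
Level of each of the 7 genes on each array (log2 relative to the 75th percentile of the array, brighter probe where there are 2), by group, with replicate numbers and the mean as a bar; open points are not well above background. Ptn, Stc2 and Cited1 are lowest in all 3 adult lung arrays, Calca is high on the 3 adult mammary arrays and on reprogrammed lung replicate 3, and Tnfsf11 runs from -7.55 to -0.93 within reprogrammed lung.

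Adult lung and adult mammary cells, the groups without reprogrammed in their names, were compared first. Calca, Ptn, Stc2 and Cited1 were far lower in adult lung, with log2 differences of -5.97 to -8.17. Prom1 was lower by a smaller step, and Tnfsf11 did not pass the test. Of the 6 genes tested, 5 were called lower and 0 higher by limma at an adjusted p under 0.05. The same test called 28.5% of the 24497 features tested, 16% of them all as lower and 12.5% as higher. The median difference of the 6 genes was -6.21, against 0.00 over all tested features. A gene was tested only if well above background on all 3 arrays of some group. The probes used for Calca and Tnfsf11 met this in adult mammary alone, the group with their highest mean. Without this filter Calca was still called lower (limma adjusted p = 0.00278) and Tnfsf11 was not called (limma adjusted p = 0.223). Of all calls, 43.8% were higher in adult lung, 60.8% after a normexp background correction and 99.6% when each array was scaled to pan-epithelial markers. Both the number of cells of a type and the RNA per cell can set such a difference in bulk samples, and they cannot be told apart here.

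Calca, the calcitonin and CGRP gene, was not well above background on any adult lung array (-6.24, -6.57 and -6.34 on replicates 1, 2 and 3). In adult mammary it stood at 2.09, 2.32 and 0.94 on replicates 1, 2 and 4. The groups did not overlap, as was the case for 52.9% of all tested features in this comparison. Calca was lower in adult lung, with a log2 difference of -8.17 ± 1.34 SE (95% interval -11.13 to -5.20, limma adjusted p = 0.00142). With adult lung set to the dimmest signal that still counted as above background there, the means were 108-fold apart. That figure leaves out the spread between arrays. With the scanner program's background subtraction replaced by a normexp correction, the difference was -3.53, still called.

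Ptn, the growth factor pleiotrophin, was at -1.84, -1.84 and -0.49 in adult lung and at 3.52, 5.66 and 6.02 in adult mammary. It was well above background on every array that measured it, and adult mammary replicate 1 was the lowest of its group. The difference was -6.46 ± 0.67 SE, or 87.8-fold (limma adjusted p = 0.000189). Cited1, the coregulator, was the least variable of the large differences: -2.38, -2.43 and -2.56 in adult lung against 3.68, 4.46 and 4.02 in adult mammary. It was 91.0-fold lower in adult lung (log2 -6.51 ± 0.66 SE, limma adjusted p = 0.000103). Stc2, the secreted stanniocalcin, was at -4.60, -3.80 and -3.96 in adult lung, where replicate 1 was not well above background. In adult mammary it was at 3.17, -0.17 and 2.55, so replicate 2 lay well under the other arrays of the group, though above all of adult lung. Its difference was -5.97 ± 0.75 SE, or 62.7-fold (limma adjusted p = 0.000325), and -3.34 after the normexp correction, also called.

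Prom1, the surface marker, was at -4.07, -3.91 and -3.99 in adult lung and at -2.18, -3.51 and -2.07 in adult mammary. Groups did not overlap, but adult mammary replicate 2 came close to adult lung. The difference was -1.40 ± 0.40 SE, or 2.65-fold (limma adjusted p = 0.0240), and it turned to 0.11 under the normexp correction and to 1.35 when each array was scaled to its pan-epithelial markers. Those 2 settings move the median of all features to 0.34 and 2.76, and relative to that median Prom1 was at -0.23 and -1.40. It was no longer called with slide entered as a block (-0.91, limma adjusted p = 0.111). The call was also lost on leaving out, singly, any array of adult lung or replicate 1 or 4 of adult mammary (limma adjusted p from 0.0602 to 0.0848). Its second probe gave -1.38 (limma adjusted p = 0.0388). Tnfsf11, the RANK ligand, was not well above background in adult lung (-6.85, -7.19 and -5.83) and was above it on all 3 adult mammary arrays (-3.73, -4.09 and -2.72). These arrays did not overlap, yet the difference of -3.11 ± 1.53 SE missed the threshold (95% interval -6.50 to 0.28, limma adjusted p = 0.158), and it was 0.28 under the normexp correction, -0.06 relative to the median of all features. It was called when the fit held the adult groups alone (limma adjusted p = 0.0047) and without reprogrammed lung replicate 4 (limma adjusted p = 0.0385). Greb1 was not tested, because in no group was it above background on all 3 arrays.

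Only slide 1 held both an adult lung and an adult mammary array, lung replicate 1 and mammary replicate 2. Within it, the differences were -8.56 for Calca, -7.50 for Ptn, -4.43 for Stc2, -6.84 for Cited1, -0.56 for Prom1 and -2.76 for Tnfsf11. All 6 keep the direction of the comparison over all arrays. Pan-epithelial markers moved with these genes: 8 of 10 were lower in adult lung and 0 higher, with a median of -2.74, with 9 or 10 of the 10 above background on each adult lung array. When each array was scaled to the median of those markers, Calca (-5.41), Ptn (-3.70), Stc2 (-3.21) and Cited1 (-3.75) were still called lower in adult lung. Alveolar luminal markers moved too, with 7 of 9 lower and 0 higher, summing to 0.408 to 0.534 times the 75th percentile in adult lung and 46.8 to 119 times in adult mammary. Of 10 basal and myoepithelial markers 7 were lower and 0 higher, with a median of -2.55. Of 6 tested adipocyte markers 3 were lower and 1 higher, and the list of 8 summed to 12.1 to 14.7 times in adult lung and 69.5 to 139.3 times in adult mammary. In the other direction, 7 of 8 endothelial and 8 of 8 alveolar type II markers were higher in adult lung. The part of these markers in the result was not tested.

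**Figure D2:**
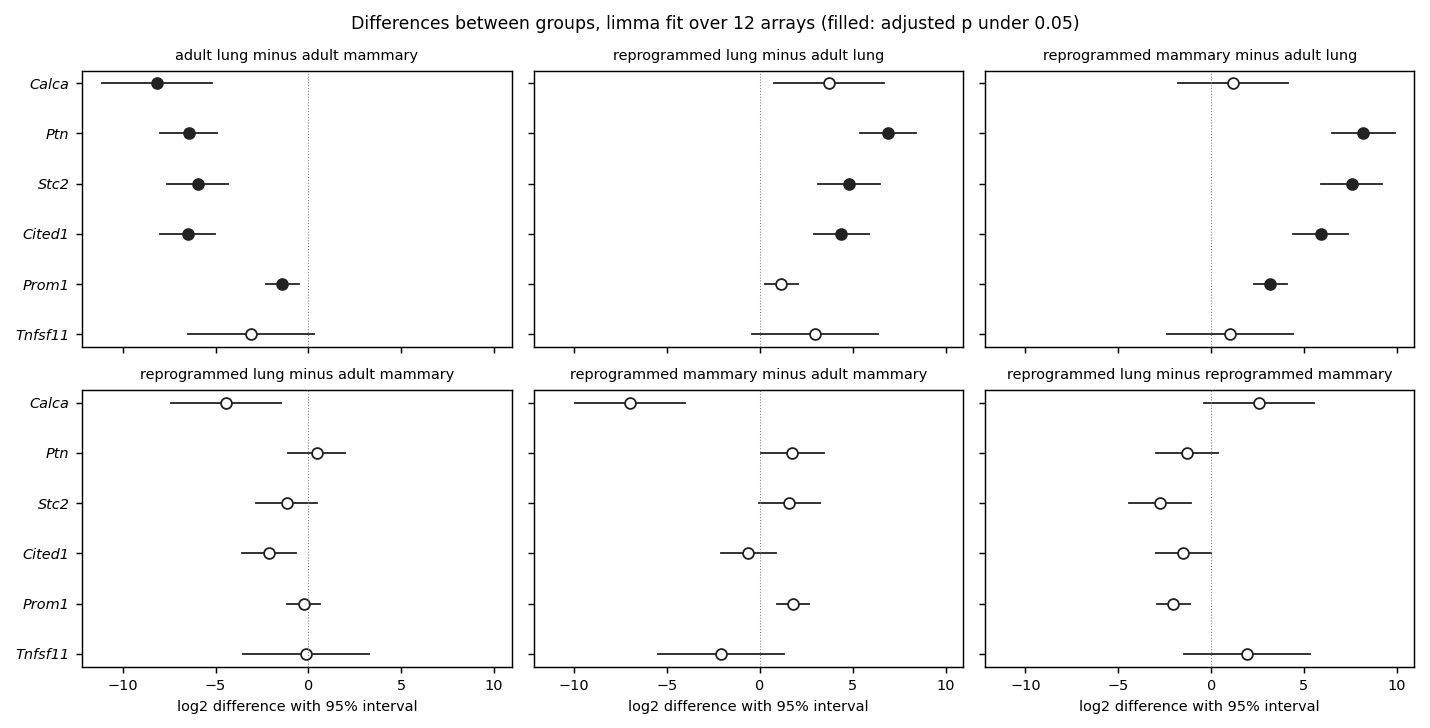
Log2 difference of the 6 tested genes in the 6 comparisons between groups, with the 95% interval of the limma fit; filled points have an adjusted p under 0.05. In the upper panels, the comparisons with adult lung, Ptn, Stc2 and Cited1 are filled in each, while Prom1 in adult lung minus adult mammary turns to 0.11 under another background correction; in the lower panels no point is filled.

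Reprogrammed lung was then set against adult lung. Ptn, Stc2 and Cited1 rose in reprogrammed lung, by 6.90, 4.80 and 4.40 on the log2 scale, and Calca, Prom1 and Tnfsf11 did not pass the test. That makes 3 of 6 called higher and 0 lower, where limma called 23.3% of all tested features, 14% of them all as higher and 9.37% as lower. Of all calls 59.8% were higher, 47.5% in the authors' deposited values, 39.5% under the normexp correction and 16.4% under pan-epithelial scaling, and Ptn and Cited1 rose in each of the 4 settings. The median of the 6 genes was 4.07, against 0.10 for all features. Marker lists moved in the same comparison: 7 of 9 alveolar luminal markers (median 6.01), 5 of 10 pan-epithelial, 5 of 10 basal and 3 of 6 tested adipocyte markers were higher in reprogrammed lung, and 7 of 8 endothelial and 8 of 8 alveolar type II markers were lower. Adipocyte markers summed to 6.74 to 133.5 times the 75th percentile in reprogrammed lung. Fabp4, with a group mean of 6.81, had a value on 2 of these 3 arrays, and the lowest sum is that of the array without it. The part of these marker lists in the result was not tested. This comparison and the one before it share the adult lung arrays, so their values for a gene are not independent.

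Ptn reached 4.70, 5.52 and 6.29 on reprogrammed lung replicates 1, 3 and 4, each more than 5 log2 units above the highest adult lung array. The rise was 119-fold (6.90 ± 0.67 SE, limma adjusted p = 0.000159). Stc2 was at -0.06, 0.57 and 1.53, a 27.9-fold rise (4.80 ± 0.75 SE, limma adjusted p = 0.00129), which fell to 2.29 and was not called after the normexp correction (limma adjusted p = 0.0582). Cited1 was at -0.03 on replicate 1 and at 2.85 and 3.00 on replicates 3 and 4, a 21.1-fold rise (4.40 ± 0.66 SE, limma adjusted p = 0.00105). For each of these 3 genes all reprogrammed lung arrays lay above all adult lung arrays, as in 36.3% of tested features the groups do not overlap. Within slides, where a reprogrammed and an adult lung array were scanned together, the rises were 7.36, 5.19 and 8.13 for Ptn on slides 1, 3 and 5. They were 5.17, 3.90 and 5.33 for Stc2 and 5.23, 2.54 and 5.43 for Cited1. Slide 3, with the smallest rise in each, is the one that holds reprogrammed lung replicate 1.

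Calca and Tnfsf11 were split between the reprogrammed lung arrays. Calca stood at 0.95 on replicate 3, just inside the range of adult mammary, at -3.16 on replicate 1, and at -5.69 on replicate 4, where it was not well above background. Its SD of 3.35 in this group was larger than that of 99.6% of tested features, whose median SD was 0.51. The difference from adult lung was 3.75 ± 1.34 SE (95% interval 0.79 to 6.71, limma adjusted p = 0.0685). Without replicate 4 it was 5.28 and called (limma adjusted p = 0.00799), and without replicate 3 it was 1.96. Tnfsf11 had the same order of arrays: -0.93 on replicate 3, -2.49 on replicate 1, and -7.55, not well above background, on replicate 4. Its SD was 3.46, larger than for 99.7% of features. The difference from adult lung, 2.97 ± 1.53 SE (limma adjusted p = 0.201), became 4.92 without replicate 4 (limma adjusted p = 0.0109) and 1.60 without replicate 3, and was 0.14 under the normexp correction. On replicate 4, Ptn, Stc2 and Cited1 were thus at their highest of the group while the brighter probes of Calca and Tnfsf11 were at background. The dimmer Calca probe was above background there (-4.47). Of the marker lists, alveolar luminal markers summed to 298 times the 75th percentile on replicate 3, 57.9 times on replicate 4 and 18.3 times on replicate 1. T cell markers, which mark another cell type known to make Tnfsf11, summed to 4.87, 24.1 and 28.9 times on the same arrays, lowest where Tnfsf11 was highest. Their part in the result was not tested.

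Prom1 was at -2.30, -3.38 and -2.84 in reprogrammed lung. All 3 arrays lay above adult lung, and the difference of 1.15 ± 0.40 SE missed the threshold (95% interval 0.27 to 2.04, limma adjusted p = 0.0622), and was -0.13 under the normexp correction and -0.01 under pan-epithelial scaling. Those settings move the median of all features to -0.20 and -1.06. Prom1 was called with slide entered as a block (limma adjusted p = 0.0226), without adult mammary replicate 2 (0.0205) and without reprogrammed lung replicate 3 (0.0430). Its second probe gave 0.93, with overlapping arrays (limma adjusted p = 0.161).

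Against adult mammary, no tested gene passed the threshold in reprogrammed lung: 0 of 6 by limma, with 2 of 6 at an unadjusted p under 0.05. Over all tested features limma called 0.0122%, and 11.7% had an unadjusted p under 0.05. The median of the 6 genes was -0.71, against 0.09. Ptn differed by 0.44 (95% interval -1.07 to 1.95), Stc2 by -1.17 (-2.83 to 0.49), Prom1 by -0.25 (-1.14 to 0.63) and Tnfsf11 by -0.14 (-3.53 to 3.25). The interval of Tnfsf11 reaches from several-fold lower to several-fold higher and that of Stc2 to several-fold lower, so the arrays do not show that the levels are alike. Calca differed by -4.42 (-7.38 to -1.45, limma adjusted p = 0.279), with replicate 3 inside the adult mammary range and replicates 1 and 4 below it. Cited1 was lower on all 3 arrays, with a difference of -2.11 (-3.58 to -0.65, limma adjusted p = 0.289), in a comparison where 11.4% of features do not overlap. Without reprogrammed lung replicate 1, the array low in pan-epithelial markers, the difference of Cited1 was -1.13, and with scaling to those markers it was -0.51. Ptn (-0.37), Stc2 (0.07) and Prom1 (0.25) changed sign with slide entered as a block. Slide 1 alone held both groups, with differences of -1.38 for Calca, -0.14 for Ptn, 0.75 for Stc2, -1.61 for Cited1, 0.13 for Prom1 and 3.17 for Tnfsf11.

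Reprogrammed mammary held the highest levels of 3 of the genes, Ptn, Stc2 and Prom1. Ptn was at 6.83 and 6.80 on replicates 1 and 3. Its spot on replicate 2 was marked as an outlier and left out, so the group mean of 6.81 ± 0.02 (SD) rests on 2 arrays. Stc2 was at 3.62, 2.87 and 3.81, and Cited1 at 3.27, 3.95 and 3.09. Prom1 was at -0.55, -1.28 and -0.56, above every array of the other 3 groups. Set against adult lung, 4 of 6 genes were called higher and 0 lower, where limma called 26% of features, 14.7% of them all as higher and 11.2% as lower. The median of the 6 was 4.54, against 0.03. Of all calls 56.8% were higher, 42.4% under the normexp correction and 0.874% under pan-epithelial scaling, which moves the median of all features to -2.39. For each of the 4, the arrays did not overlap with adult lung, as in 57.1% of features. They were Ptn (8.20 ± 0.75 SE), Stc2 (7.56 ± 0.75), Cited1 (5.89 ± 0.66) and Prom1 (3.19 ± 0.40), with limma adjusted p of 8.8e-05, 7.89e-05, 0.000169 and 0.000314. Prom1 lost its call under the normexp correction (1.13, limma adjusted p = 0.0590) and under pan-epithelial scaling (0.77, limma adjusted p = 0.449). Within slide 5, which alone held both groups, the differences were 6.68 for Stc2, 6.38 for Cited1, 2.63 for Prom1, 1.25 for Calca and 4.04 for Tnfsf11.

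Calca and Tnfsf11 were the tested genes not called higher in reprogrammed mammary against adult lung. On its brighter probe Calca was at -3.76 on replicate 1 and, not well above background, at -5.33 and -6.56 on replicates 2 and 3. The dimmer probe was above background on replicate 3 alone (-5.09). Against adult lung the difference was 1.17 (95% interval -1.80 to 4.13), with overlapping arrays, and it was -0.72 under the normexp correction. Against adult mammary it was -7.00 ± 1.34 SE (-9.96 to -4.04), and every reprogrammed mammary array lay under every adult mammary array. That difference had an unadjusted p of 0.000336 but an adjusted p of 0.175 in limma, and an adjusted p of 0.0442 without reprogrammed lung replicate 3. Within slides 2 and 4, the 2 slides with both groups, it was -5.85 and -7.50. In this comparison limma called 0 of 6 genes, with 3 of 6 at an unadjusted p under 0.05. Over all features it called 0.00408%, with 9.99% at an unadjusted p under 0.05, and the groups do not overlap in 23.3%. The other 2 genes at an unadjusted p under 0.05 were Prom1, higher by 1.79 (0.90 to 2.67), and Ptn, higher by 1.74 (0.05 to 3.44). Stc2 differed by 1.59 (-0.07 to 3.24) and Cited1 by -0.62 (-2.08 to 0.85). Tnfsf11 was at -3.15 on replicate 2 and not well above background on replicates 1 and 3 (-6.02 and -7.60). Its difference was -2.08 (-5.47 to 1.31) from adult mammary. From adult lung it was 1.03 (-2.36 to 4.42, limma adjusted p = 0.686), with overlapping arrays. Replicate 2 is also the array of this group with the highest T cell sum, 38.3 times the 75th percentile against 14.5 and 11.9. Its part in the result was not tested.

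Between the reprogrammed groups limma called 0 of 6 genes, with 3 of 6 at an unadjusted p under 0.05, where it called 0.00408% of all features and 9.53% had an unadjusted p under 0.05. Those 3 were all lower in reprogrammed lung: Stc2 at -2.76 (-4.41 to -1.10), Prom1 at -2.04 (-2.93 to -1.15) and Cited1 at -1.50 (-2.96 to -0.03). They and Ptn (-1.30) had no overlap between the groups, which holds for 13% of features. Without reprogrammed lung replicate 1 the difference of Cited1 was -0.51, and Ptn was at 0.08 under pan-epithelial scaling. The median of the 6 genes was -1.40, against 0.06. Slide 5 gave -1.35 for Stc2, -1.56 for Prom1 and -0.95 for Cited1. Calca was at 2.58 (-0.38 to 5.55) and Tnfsf11 at 1.94 (-1.45 to 5.33), with overlapping arrays, and slide 5 gave the opposite sign for both (-0.37 and -4.40).

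The change that goes with the word reprogrammed was also tested for a difference between the organ names, as reprogrammed minus adult in lung, less the same in mammary. The value equals the lung minus mammary difference of the reprogrammed groups, less that of the adult groups, so it is not independent of the adult comparison above. For 3 of 6 genes limma called the difference between organ names higher, and for 0 lower. Of all features 12.8% were called, 7.47% of them all as higher and 5.35% as lower. Of all calls 58.3% were higher, 47.2% after quantile normalization, 44.0% in the authors' deposited values, 34.9% under the normexp correction and 10.53% under pan-epithelial scaling. Calca gave 10.75 ± 1.89 SE (limma adjusted p = 0.00597), from a change of 3.75 in lung and -7.00 in mammary. The size of this value is not exact, since the probe was above background on 0 of 3 adult lung and 1 of 3 reprogrammed mammary arrays, and it was 4.78 under the normexp correction. That probe entered the test through adult mammary alone. Without the background filter the difference was still called (limma adjusted p = 0.0115). Ptn gave 5.15 ± 1.01 (limma adjusted p = 0.0116), from 6.90 and 1.74, and Cited1 gave 5.01 ± 0.93 (limma adjusted p = 0.00775), from 4.40 and -0.62. Stc2 gave 3.21 ± 1.06 (limma adjusted p = 0.0750), and Tnfsf11 5.04 ± 2.16 (limma adjusted p = 0.161). Prom1 gave -0.64 ± 0.56 (limma adjusted p = 0.521), with changes of 1.15 and 1.79. The call for Ptn did not hold with slide entered as a block (4.85, limma adjusted p = 0.0999) and under pan-epithelial scaling (3.78, limma adjusted p = 0.389). Cited1 lost its call under that scaling (3.52, limma adjusted p = 0.252), and Stc2 was called with slide as a block (3.61, limma adjusted p = 0.0274), without adult mammary replicate 2 (4.22, 0.00585) and without reprogrammed lung replicate 1 (3.58, 0.0483). Tnfsf11 was called without reprogrammed lung replicate 4 (6.99, limma adjusted p = 0.0141).

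Calca, Prom1 and Tnfsf11 can be read by a second probe. The Calca probes carry different transcript accessions, NM_007587 for the brighter and NM_001033954 for the dimmer, and the files do not say which product each reports. On the dimmer probe Calca was at -3.04, -0.60 and -3.42 in adult mammary and at -4.09, -1.28 and -4.47 in reprogrammed lung, replicate 3 again the highest of its group. It was not well above background in adult lung. The adult difference on the dimmer probe was -3.18 ± 0.90 SE (95% interval -5.16 to -1.19, limma adjusted p = 0.0227). With adult lung set to the dimmest signal above background, the means were 6.13-fold apart. The difference between organ names on this probe was 5.46 ± 1.27 (limma adjusted p = 0.0192). Reprogrammed lung lay 0.93 below adult mammary on it (95% interval -2.92 to 1.06), against 4.42 below on the brighter probe. Averaging both probes gave -2.67. Prom1 agreed between probes in direction in all 6 comparisons, with -2.03 against -2.04 for the reprogrammed groups. For reprogrammed lung against adult lung the dimmer probe gave 0.93 with overlapping arrays, against 1.15 without overlap on the brighter. The dimmer Tnfsf11 probe was above background on adult mammary replicate 4 and reprogrammed lung replicates 1 and 3 alone, and was not tested.

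**Figure D3:**
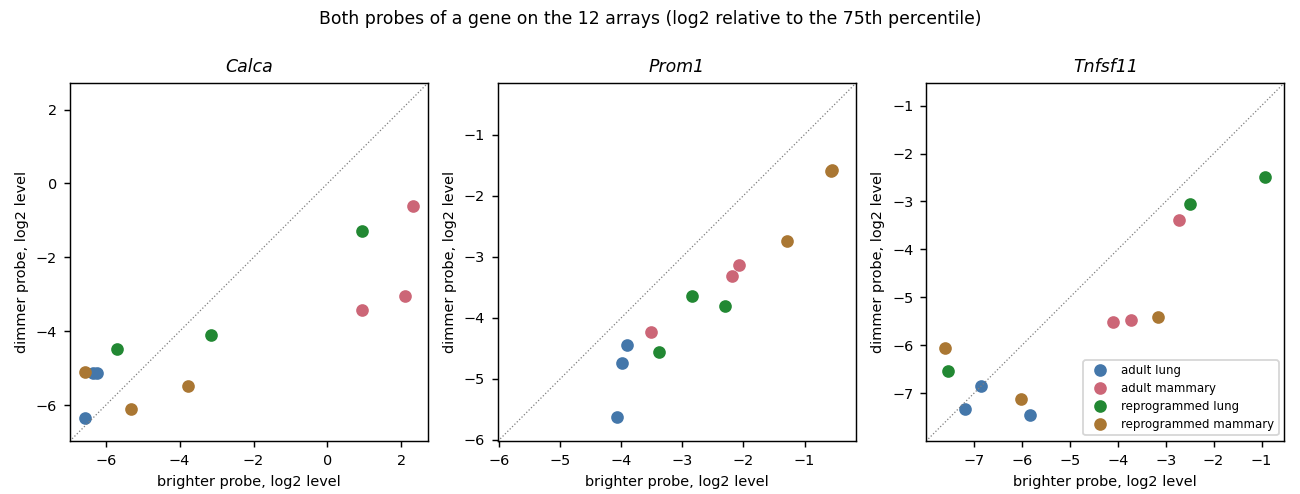
Level of the brighter probe against that of the dimmer probe of Calca, Prom1 and Tnfsf11 on each of the 12 arrays (log2 relative to the 75th percentile), coloured by group; the dotted line marks equal levels. On both Calca probes adult mammary and reprogrammed lung replicate 3 hold the highest arrays, with adult mammary at 0.94 to 2.32 on the brighter and -3.42 to -0.60 on the dimmer probe, and on both Prom1 probes reprogrammed mammary is highest.

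Greb1, the oestrogen receptor cofactor, was at or near background throughout. Signal well above background was marked on 3 arrays, at -4.31 on adult mammary replicate 4, at -3.38 on reprogrammed lung replicate 1 and at -4.25 on reprogrammed lung replicate 4. The other 9 lay between -7.29 and -5.12. Of the 3 arrays with signal, the first 2 named are also the arrays of narrow signal range, with the largest share of probes marked as above background. B cell markers summed to 11.3, 121 and 2.12 times the 75th percentile on these 3 arrays. Their part in the result was not tested, and no level for Greb1 can be given in adult lung or reprogrammed mammary.

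The order of the group means differed between the genes. For Ptn and Prom1 it was adult lung lowest, then the 2 middle groups, adult mammary and reprogrammed lung, whose arrays overlapped, and reprogrammed mammary highest. Stc2 rose from adult lung (-4.12 ± 0.42 SD, n = 3) to reprogrammed lung (0.68 ± 0.80), adult mammary (1.85 ± 1.78) and reprogrammed mammary (3.44 ± 0.50), with overlap between the last 3 in neighbouring pairs. Cited1 rose from adult lung (-2.46 ± 0.10) to reprogrammed lung (1.94 ± 1.70), reprogrammed mammary (3.44 ± 0.45) and adult mammary (4.05 ± 0.39), and the mammary groups overlapped. Calca had adult mammary (1.78 ± 0.74) at the top, then reprogrammed lung (-2.63 ± 3.35), reprogrammed mammary (-5.22 ± 1.40) and adult lung (-6.39 ± 0.17), each overlapping with its neighbour, the first pair only through reprogrammed lung replicate 3. Tnfsf11 had adult mammary (-3.51 ± 0.71) and reprogrammed lung (-3.65 ± 3.46) together, above reprogrammed mammary (-5.59 ± 2.25) and adult lung (-6.62 ± 0.71), with wide overlap.

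Across arrays the pairs of genes differed in correlation, with no clean split. As a description over 12 arrays, which share group and sample makeup (11 for pairs with Ptn), Pearson's r was 0.90 for Ptn with Cited1, 0.89 for Ptn with Stc2, 0.89 for Stc2 with Cited1 and 0.88 for Stc2 with Prom1. Prom1 had r = 0.72 with Ptn and 0.62 with Cited1, and Calca and Tnfsf11 had r = 0.72 with each other. Calca had r between 0.35 and 0.60 with Ptn, Stc2 and Cited1, and -0.02 with Prom1. Among all tested features with a symbol, the profile most like that of Calca was Rspo1, an activator of Wnt signalling (r = 0.96), followed by Alox12e and Tmprss6 (0.92 each). For Ptn they were Ppp1r14b (0.99), the milk protein gene Csn3 and Pdlim4 (0.98 each). Stc2 was followed most closely by Mtmr7 (0.99), Amd1 and Cox8a (0.98 each), and Cited1 by C2cd4b (0.99), Lmx1b and Efs (0.98 each). Prom1 had Padi2 (0.96), Tmem168 (0.95) and Tmed3 (0.94), and Tnfsf11 had Gtf3c5 (0.90), Cd1d1 (0.87) and Hepacam2 (0.85). For Greb1, at background on most arrays, they were Irf4 (0.97), a lymphocyte transcription factor gene, Bcat1 (0.96) and Tbata (0.95).

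The hormone receptors of hormone-sensing cells separated the adult organs in the same direction. Of 15 hormone receptors and luminal factors, 9 were called lower in adult lung and 1 higher, against 16% and 12.5% of all features, with a median of -2.36. Esr1, the oestrogen receptor, was not well above background in adult lung (-6.12 ± 0.50 SD) and stood at -1.01 ± 0.35 in adult mammary (limma adjusted p = 9.45e-05). With adult lung set to the dimmest signal above background, the means of Esr1 were 15.6-fold apart. Under the normexp correction its difference was -1.19 and not called. The difference was -6.91 ± 0.63 SE for the prolactin receptor Prlr (limma adjusted p = 5.36e-05) and -3.29 ± 0.67 for the progesterone receptor Pgr (limma adjusted p = 0.0046), though Pgr was not called with slide as a block (-2.38, limma adjusted p = 0.0823). It was -3.30 for Areg, the EGF-family ligand amphiregulin, and -3.32 for the luminal factor Gata3. Foxa1 (-2.36), Msx2 (-4.14), Spdef (-2.23) and Wnt5a (-2.52) were the others called lower, and all 4 lost the call under the normexp correction. Tbx3, a T-box factor, was higher by 2.18. Relative to the pan-epithelial markers, Prlr and Esr1 were still called lower, Areg, Gata3, Msx2 and Pgr were lower but not called, and Foxa1 (0.39), Spdef (0.53) and Wnt5a (0.24) changed sign. That scaling raises the median of all features in this comparison, and relative to that median Foxa1 was at -2.36. The number called lower was 4 under the normexp correction and 2 under pan-epithelial scaling. The number called higher was 2 without reprogrammed lung replicate 1 or 4.

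In reprogrammed lung against adult lung, 9 of the 15 were called higher and 1, Tbx3, lower, against 14% and 9.37% of all features, with a median of 2.14. Esr1 was at -1.47 ± 1.23 SD, Pgr at 2.47 ± 1.56, Prlr at 2.42 ± 1.36 and Areg at 4.05 ± 0.35. Reprogrammed mammary had Pgr at 4.51 ± 0.41, Prlr at 4.35 ± 0.58 and Esr1 at -0.65 ± 0.18. Against adult mammary, limma called 0 of 15 in either reprogrammed group, in comparisons where it called 0.0122% (lung) and 0.00408% (mammary) of all features. At an unadjusted p under 0.05 there were 3 and 6 of the 15, where 11.7% and 9.99% of all features had one. Calca was low in reprogrammed mammary, though its difference from adult mammary was not called (limma adjusted p = 0.175). The group means of Esr1, Pgr and Prlr there were no lower than those of adult mammary (-1.01 ± 0.35, 2.80 ± 0.77 and 3.93 ± 0.78). A relation between Calca and these receptors was not tested.

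Of 20 tested genes known to respond to oestrogen or progesterone, 7 were called lower in adult lung, 3 higher and 10 neither, with a median of -0.48. Over all features 16% were called lower and 12.5% higher, so the share called higher is near that of all features. The 4 with the largest changes were Krt19 (-3.39), also a pan-epithelial marker, Cyp26b1 (3.31), Areg (-3.30) and Pgr (-3.29), of which the last 2 also stand among the 15 above. The 3 called higher became 1 when any of adult lung replicates 1, 2 and 3 or adult mammary replicates 2 and 4 was left out. In reprogrammed lung against adult lung 7 were called higher and 3 lower, where 14% and 9.37% of all features were. The median was 0.55, against 0.10 for all features.

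Of 19 tested receptors, partners and paralogs of the ligands and of the other genes, 8 were called lower in adult lung and 4 higher, against 16% and 12.5% of all features, with a median of -0.57. Without adult lung replicate 1 the 8 became 4, and with slide as a block 3 were called lower and 2 higher. Tnfrsf11a, the receptor RANK, was at -3.36 ± 0.32 SD in adult lung and at 0.26 ± 0.18, 0.47 ± 0.18 and 0.21 ± 0.24 in adult mammary, reprogrammed lung and reprogrammed mammary. The difference of adult lung from adult mammary was -3.62 ± 0.21 SE (limma adjusted p = 4.64e-06). In reprogrammed lung, where the SD of its ligand Tnfsf11 was 3.46, that of Tnfrsf11a was 0.18. Relative to the pan-epithelial markers its difference was -0.87 and not called. For the decoy receptor Tnfrsf11b no difference was detectable (0.19, limma adjusted p = 0.894), and its sign turned in the authors' deposited values and with slide as a block (-0.03 in each).

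For the CGRP receptor the parts went opposite ways. Calcrl, the receptor itself, was higher in adult lung by 4.46 ± 0.24 SE (limma adjusted p = 3.49e-06), and so was Ramp2, which pairs with it to bind adrenomedullin, by 3.42 ± 0.29 (limma adjusted p = 3.39e-05). Ramp1, which pairs with Calcrl to bind CGRP, was lower (-0.94 ± 0.25, limma adjusted p = 0.0169). That call was lost under the normexp correction, with slide as a block, and without adult lung replicate 1 or adult mammary replicate 1 or 4. The sign of Ramp1 turned under pan-epithelial scaling (1.82), which raises the median of all features in this comparison. Endothelial markers moved with Calcrl and Ramp2, summing to 132 to 157 times the 75th percentile in adult lung and 19.7 to 51.2 times in the other groups. Their part in the result was not tested. Calcr, the calcitonin receptor, was higher in adult lung by 1.36 ± 0.34 (limma adjusted p = 0.0139), a call not kept with slide as a block, when its probes were averaged, or without adult lung replicate 3 or adult mammary replicate 1.

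Among the partners of Ptn, the receptor phosphatase Ptprz1 was lower in adult lung (-1.74 ± 0.48 SE, limma adjusted p = 0.0201). The call was lost on leaving out replicate 1 or 2 of adult lung, or 1 or 4 of adult mammary, and its difference was 0.08 under the normexp correction and 1.01 under pan-epithelial scaling. Nucleolin (Ncl) was lower (-1.82 ± 0.26) and the syndecan Sdc3 higher (1.83 ± 0.31), the latter not called with slide as a block. Among paralogs, Mdk, the paralog of Ptn, was lower in adult lung (-0.85 ± 0.21, limma adjusted p = 0.0117), a call lost without adult lung replicate 1. Stc1 (-1.42 ± 0.31, limma adjusted p = 0.00694), Cited4 (-2.28 ± 0.59, 0.0152) and Prom2 (-5.42 ± 1.02, 0.00307) were lower too, and none of these 3 was called with slide as a block, nor was Cited4 without adult lung replicate 1. Under pan-epithelial scaling Mdk (1.91), Stc1 (1.33), Cited4 (0.48) and Ncl (0.94) changed sign. That scaling raises the median of all features in this comparison, and relative to that median Cited4 was at -2.28. In reprogrammed lung and reprogrammed mammary against adult mammary limma called 0 of the 19, where it called 0.0122% and 0.00408% of all features. At an unadjusted p under 0.05 there were 4 and 2 of the 19, where 11.7% and 9.99% of all features had one.

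**Figure D4:**
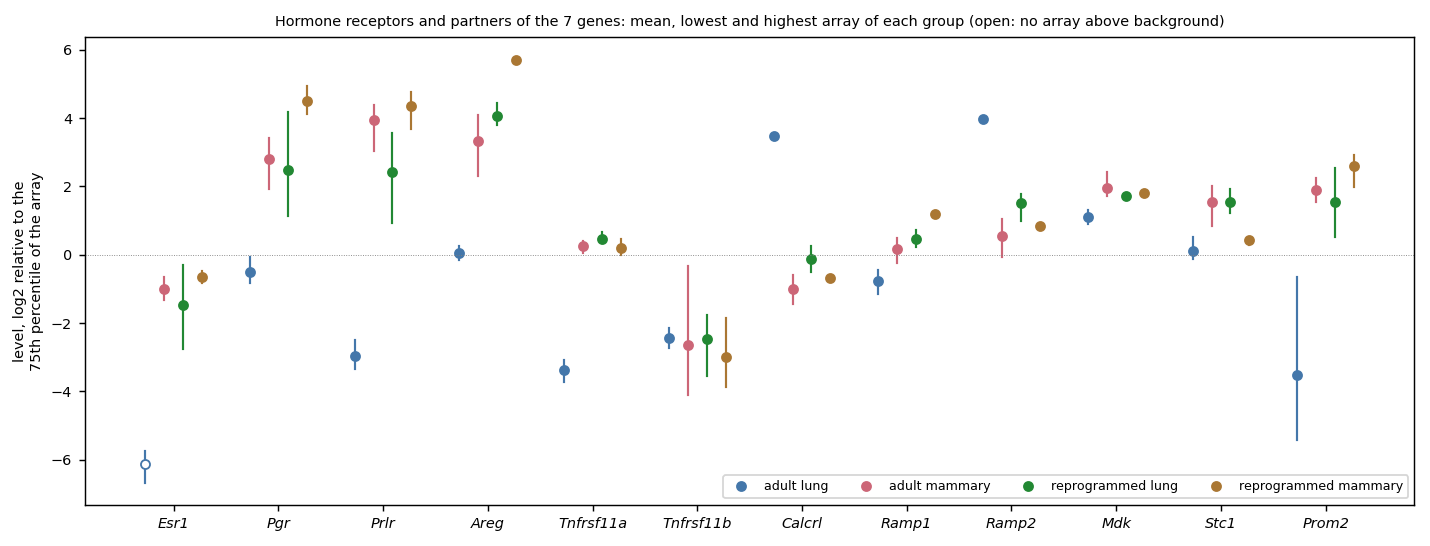
Mean level (points) and lowest to highest array (lines) of hormone receptors and of partners and paralogs of the 7 genes in each group, log2 relative to the 75th percentile of the array. Esr1, Pgr, Prlr, Areg and Tnfrsf11a are lowest in adult lung, Calcrl and Ramp2 are highest there, and Tnfrsf11b overlaps between all groups. Relative to pan-epithelial markers Ramp1, Mdk and Stc1 change sign in adult lung against adult mammary, where that scaling raises the median of all features.

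**Figure D5:**
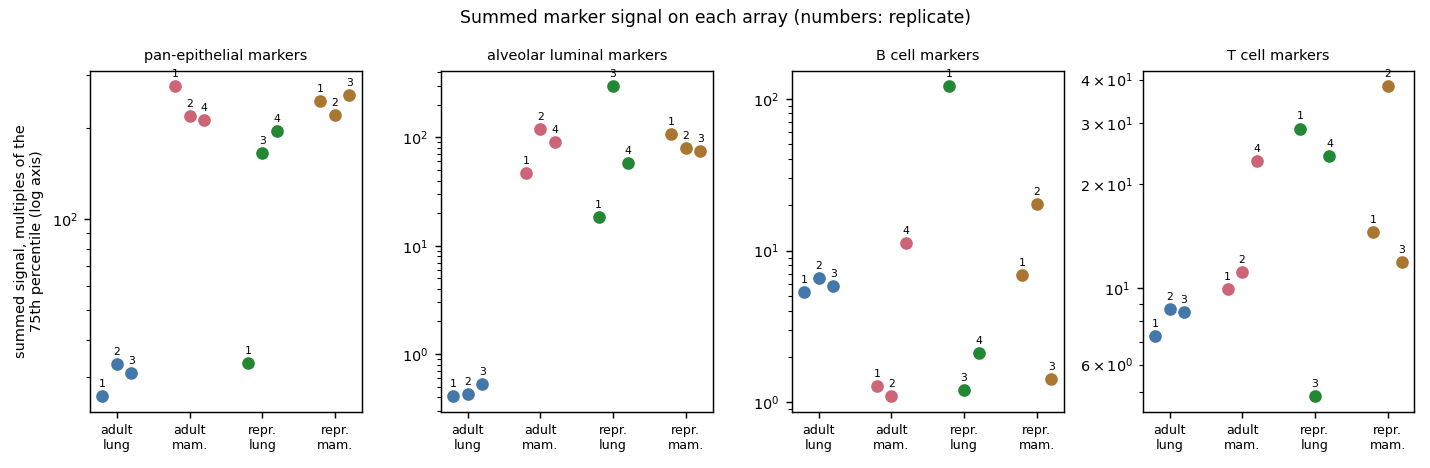
Summed signal of 4 marker lists on each array, as multiples of the 75th percentile of the array on a log axis, by group with replicate numbers. Pan-epithelial markers of reprogrammed lung replicate 1 (33.6) lie with adult lung, and its B cell markers (121) are the highest of the 12 arrays. Alveolar luminal markers are highest on reprogrammed lung replicate 3 (298), the array on which Calca and Tnfsf11 were highest in that group. Between replicates 1 and 4 the order is opposite: replicate 4 has the higher alveolar luminal sum and the lower Calca and Tnfsf11.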

How the data were processed

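The deposited scanner files hold 1-colour intensity values per spot, made with Agilent Feature Extraction 10.5.1.1 per the file headers (10.1 per the submitters' processing notes). The RNA was amplified from low input and labelled with Cy3, per the labels' protocols. The authors also deposited a matrix of log2 values, for which the sources used here give no method. Its array medians were 6.78 to 6.79, it was used as an alternative, and its rank order within an array followed the raw signals.

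Background-subtracted, processed signals were taken as log2 minus the 75th percentile of the array, spots of a probe were averaged, and control and outlier spots were left out. Probes were named through their transcript accession, 24836 with 1 symbol and 16338 with none. The probe with the highest mean stood for a gene. A feature was tested if well above background on all 3 arrays of some group, which left 24497 of 32678 features and 6 of the 7 genes. All 12 arrays entered 1 limma fit (limma 3.58.1, R 4.3.3; lmFit and eBayes, 2-sided) with a mean per group, and p-values were adjusted by Benjamini-Hochberg over all tested features at 0.05. The fit was tested on simulated data. Replicates were 3 arrays per group, and their number limits the precision.

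Alternatives were normexp (offset 50), quantile normalization, other filters, averaged probes, slide or replicate number as a block, fits of the compared groups alone, and leaving arrays out. Normexp was run on median in place of mean spot signals. Scaling to pan-epithelial markers was added after seeing the data. Named beyond the 7 genes are the 3 profiles most like each, list genes called in adult lung against adult mammary together with 10 receptors and partners, and the 4 largest changes among response genes. The 7 genes and all lists were chosen with earlier results of these data known. Promoters are from RefSeq, build GRCm38.p6, where all 7 genes matched. One marker list is not reported here.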

Additional observations from a re-analysis of the deposited data

Results flagged for a closer look

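For 3 of the genes, the change from adult to reprogrammed arrays differed between the lung and the mammary names in a test of the difference itself. It was 10.75 for Calca, 5.15 for Ptn and 5.01 for Cited1 on the log2 scale (limma adjusted p of 0.00597, 0.0116 and 0.00775), with all 12 arrays in the fit. The same value is the lung minus mammary difference of the reprogrammed groups, less that of the adult groups. Those parts were 2.58 and -8.17 for Calca, -1.30 and -6.46 for Ptn and -1.50 and -6.51 for Cited1. For each gene the adult part, already reported above, is the larger in size, and the reprogrammed part was not called. Leaving out each array in turn gave 8.96 to 12.28 for Calca, 4.68 to 5.92 for Ptn and 4.48 to 5.995 for Cited1, each still called in all 12 of these fits. The call for Ptn was lost with slide as a block (4.85, limma adjusted p = 0.0999) and under pan-epithelial scaling (3.78, 0.389), and that for Cited1 under that scaling (3.52, 0.252). The Calca probe was not above background on any adult lung array or on 2 of 3 reprogrammed mammary arrays, so its size is not exact. That probe entered the test through adult mammary alone. In the fits without reprogrammed mammary replicate 1 or 3, Ptn has 1 array in that group, which is assumed to vary like the others.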

How the results depend on the processing

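The count of genes called was most affected by keeping only features above background on all arrays, which leaves Cited1 and Prom1 in the test: 2 for adult lung against adult mammary, 1 for reprogrammed against adult lung, 2 for reprogrammed mammary against adult lung and 1 for the difference between organ names. The last was also 1 under pan-epithelial scaling. Leaving out 1 array gave 4 to 6, 3 to 5 and 4 to 4 in the first 3 of these, 3 to 4 in the last, 0 to 1 for reprogrammed against adult mammary and 0 in the other comparisons. Some signs turned. Under normexp the values were 0.11 (Prom1) and 0.28 (Tnfsf11) for adult lung against adult mammary, -0.13 (Prom1) for reprogrammed against adult lung, 0.42 (Tnfsf11) for reprogrammed lung against adult mammary, and -0.72 (Calca) and -0.64 (Tnfsf11) for reprogrammed mammary against adult lung. With pan-epithelial scaling they were 1.35, -0.0094 and 1.34 for Prom1 in adult lung against adult mammary and in reprogrammed lung against adult lung and adult mammary. They were 0.43 (Stc2) and 1.46 (Tnfsf11) in the last of these, -1.26 (Calca) and -1.39 (Tnfsf11) for reprogrammed mammary against adult lung, and 0.081 (Ptn) between the reprogrammed groups. That scaling also moved the median of all features in each of these comparisons. For reprogrammed lung against adult mammary, slide as a block gave -0.37 (Ptn), 0.068 (Stc2) and 0.25 (Prom1), and Tnfsf11 was 0.20 in the authors' values and 0.31 with probes averaged. There, leaving out 1 array gave -0.33 to 0.91 for Ptn, -0.72 to 0.017 for Prom1 and -1.50 to 1.81 for Tnfsf11. Tnfsf11 in reprogrammed mammary against adult lung ran from -0.19 to 2.04. Of the list genes in adult lung against adult mammary, pan-epithelial scaling turned Cited4 (0.48), Foxa1 (0.39), Mdk (1.91), Ncl (0.94), Ptprz1 (1.01), Ramp1 (1.82), Spdef (0.53), Stc1 (1.33) and Wnt5a (0.24). It raises the median of all features there, and relative to that median Cited4 was at -2.28 and Foxa1 at -2.36. Normexp turned Ptprz1 (0.081), and Tnfrsf11b was -0.031 in the authors' values and with slide as a block, and -0.54 to 1.35 without 1 array. The causes were not tested.

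Features called over the whole array ranged widely. They were 6971 for adult lung against adult mammary (2675 with slide as a block, 20001 with pan-epithelial scaling) and 5714 for reprogrammed against adult lung (2838 under normexp, 3088 with these groups alone, 3723 with the replicate block, 646 with pan-epithelial scaling). Reprogrammed mammary against adult lung had 6363 (2411 with slide as a block, 10740 with these groups alone, 16812 with pan-epithelial scaling). The difference between organ names had 3139 (1139 under normexp, 1143 with the replicate block, 1173 with slide as a block, 5702 without both arrays of narrow range, 76 with pan-epithelial scaling). Reprogrammed lung against adult mammary had 3, and 331 without reprogrammed lung replicate 4. Of 13 same-numbered pairs of arrays, 5 had deviations correlated above 0.1, and r ran from -0.53 to 0.33. Whether same-numbered arrays share a source was not tested. With the replicate block, 4 genes in place of 5 were called in adult lung against adult mammary, without Prom1 (-1.24, limma adjusted p = 0.0538). Probes near background give only bounds, and their differences shrink most under normexp.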
